A study of Rattus norvegicus with 8 samples.

Results

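The nuclear genes for subunits of the mitochondrial respiratory chain and ATP synthase were examined in the hypothalamus of rats given retinoic acid (RA). All genes whose rat symbol begins with Ndufa, Ndufb, Ndufc, Ndufs or Ndufv (complex I), Uqcr (complex III), Cox4, Cox5, Cox6, Cox7 or Cox8 (complex IV) or Atp5 (complex V) were taken, together with *Sdha*, *Sdhb*, *Sdhc* and *Sdhd* (complex II), and the Ndufaf assembly factors were left out. This rule gave 77 genes of the 15159 named genes on the arrays, with 33 in complex I, 4 in complex II, 8 in complex III, 17 in complex IV and 15 in complex V. By the same rule the reference annotation holds 110 protein-coding genes, of which 34 had no matched probe and are not analysed here, among them *Ndufa13*, *Cox7a1* and *Atp5mc3*. One of the 77, *Cox6c-ps1*, is annotated as a pseudogene of *Cox6c*, and its probe may also bind the transcript of the parent gene.

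Male F344 rats (F344N in the labels) held in short day photoperiod (SD) received 5 μl of RA or vehicle into the third ventricle (ICV), and hypothalamic blocks that included the arcuate nuclei were taken 24 hrs later. Two-colour Agilent arrays, 8 in number, each compared RNA after RA with RNA after vehicle, from 4 rats of either kind, and the Cy3 and Cy5 dyes were exchanged between arrays. RA was in Cy5 on arrays 1, 3, 6 and 8 and in Cy3 on arrays 2, 4, 5 and 7. The labels give all-trans RA at 1e-05 M and saline as the vehicle, whereas the paper's methods give a higher concentration and a vehicle that also contained DMSO. Which arrays carry RNA of the same rats is not stated in the sources used here, so an array is not counted as a rat.

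The respiratory chain passes electrons from NADH and succinate to oxygen and pumps protons across the inner mitochondrial membrane, and ATP synthase uses the returning protons to make ATP. Complexes I, III, IV and V combine subunits encoded in the nucleus with subunits encoded in mitochondrial DNA, while complex II is encoded in the nucleus alone. Neurons draw most of their ATP from this pathway, and transcription of the nuclear subunit genes is driven in many tissues by nuclear respiratory factor 1 (NRF1), the GA-binding protein (GABP) and the coactivator PGC-1α.

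Every value below is a log2 ratio of RA over vehicle after loess normalisation, with values above 0 where the signal was higher after RA. The log2 fold change of a gene is the mean over both dye orders, and its standard error (SE) comes from limma on 4 pairs of arrays, each with 1 array of either dye order. Because the pairing is not known, all 24 possible pairings were fitted and the largest p is given. The share of all probes that Agilent's software marked as well above background was 57.4% to 74.6% per array for RA and 61.2% to 74.5% for vehicle. Of the 77 subunit genes, 76 were well above background on all 8 arrays in the RA or vehicle channel and 0 were saturated. The exception was *Cox8c*, a testis isoform, which was well above background on 0 of 8 arrays in either channel and therefore has no fold change here. As for the tissue, all 11 measured hypothalamic markers and all 9 measured neuron markers were well above background on all 8 arrays. The arrays differed in hypothalamic markers, whose median log2 ratio was -0.68 on array 5 and -0.63 on array 8 but -0.049 to 0.19 elsewhere.

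After RA, 69 of the 77 subunit genes had a log2 fold change below 0, which is 89.6% against 52.4% of all named genes. The shift was small. The median of the subunit genes was -0.053, with quartiles of -0.073 and -0.026, and the median of all named genes was -0.0047. Without *Cox8c*, 68 of 76 genes were below 0. At the threshold of the study's methods, an unadjusted p under 0.01, limma called 0 subunit genes higher and 0 lower, against 3.52% of named genes called higher, 0.792% called lower and 4.31% in either direction. At an unadjusted p under 0.05, limma called 1 subunit gene higher (*Cox6a2*) and 2 lower (*Cox7a2l* and *Ndufb4*), against 8.48% and 4.57% of named genes, or 13.1% in either direction. None had an adjusted p under 0.05 (0 in limma, and 0% of named genes), and the lowest adjusted p was 0.37 for *Cox6a2*. These are values of whole tissue blocks, in which fewer cells of a type and less RNA per cell cannot be told apart.

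The intervals were narrow. For 74 of the 77 genes (96.1%) the 95% interval of the log2 fold change lay within a 1.2-fold change in either direction, against 78.6% of named genes, and the exceptions were *Cox6a2*, *Cox8b* and *Uqcrc2*. Each interval stands for its own gene, with no allowance for the number of genes, so a larger change in some of the 74 is not excluded. *Cox8c* is counted among them by its dim signal alone. The log2 fold changes of all 77 genes had a standard deviation of 0.087, compared with 0.19 for 10802 other named genes well above background. Much of that spread came from *Cox6a2* and *Cox8b*. With both set aside after their values had been seen, the other 75 genes ran from -0.12 to 0.12 with a standard deviation of 0.041, and no such removal was made among the other named genes.

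**Figure D1:**
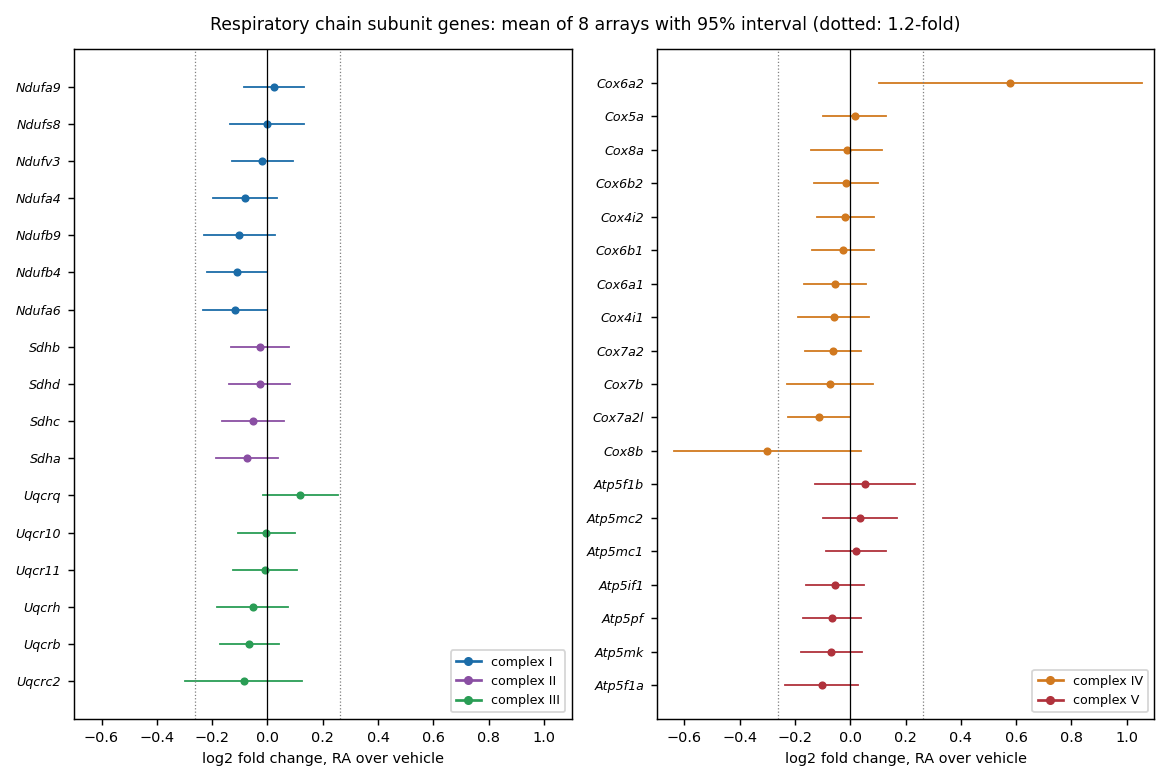
Log2 fold change (RA over vehicle, x axis, log2 scale) of 36 subunit genes (the highest and lowest of each complex and the isoform pairs), as the mean of 8 arrays (points) with the 95% interval from limma (bars), coloured by complex and ordered within it, with dotted lines at a 1.2-fold change. Most points lie just left of 0 within the dotted lines, *Cox6a2* stands apart at 0.58 and *Cox8b* at -0.30.

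The median over the 77 genes was below 0 on every one of the 8 arrays. With RA in Cy5 it was -0.031, -0.048, -0.066 and -0.021 on arrays 1, 3, 6 and 8, and with RA in Cy3 it was -0.046, -0.072, -0.041 and -0.090 on arrays 2, 4, 5 and 7. The corresponding medians of all named genes lay between -0.0079 and 0.0077. Few single genes kept one sign throughout. *Ndufa6* and *Cox7a2* were below 0 on all 8 arrays and no subunit gene was above 0 on all 8, so that 2.6% kept their sign, against 5.87% of named genes with the same sign and 1.8% below 0 on all 8.

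**Figure D2:**
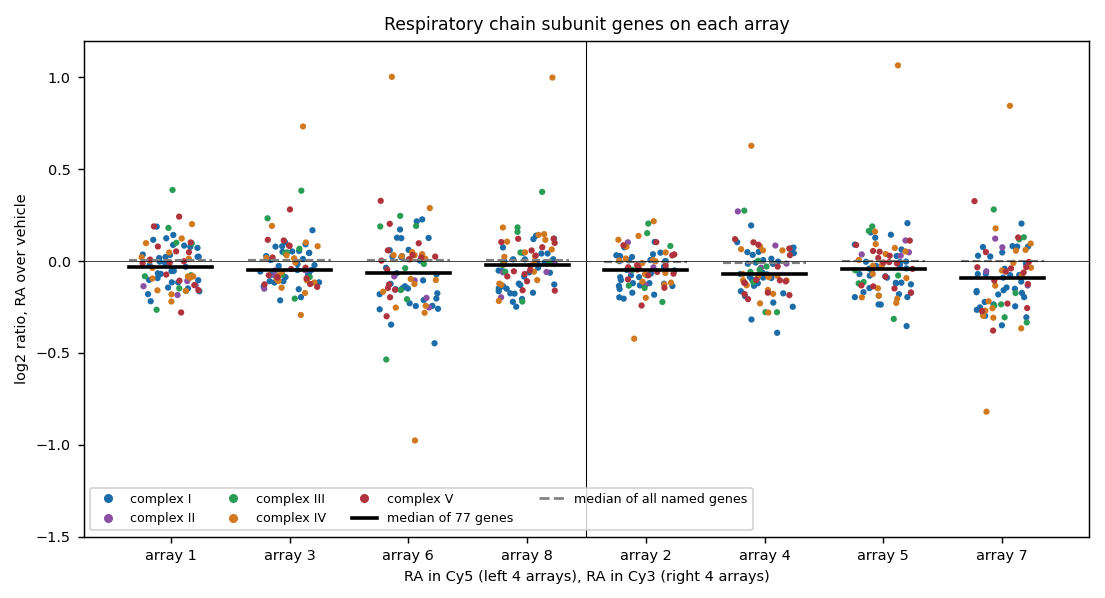
Log2 ratio (RA over vehicle, y axis) of each of the 77 subunit genes on each of the 8 arrays, with RA in Cy5 on the left and in Cy3 on the right, a black line at the median of the subunit genes and a dashed line at the median of all named genes. The black line lies below the dashed line on all 8 arrays, between -0.021 and -0.090.

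Complex I, which oxidises NADH, had a median of -0.071 over both dye orders, the lowest among the complexes, and 32 of its 33 genes were below 0. In single dye orders it was not the lowest, as complex II had -0.094 against -0.042 with RA in Cy5 and complex III -0.079 against -0.068 with RA in Cy3. Its medians by array ran from -0.14 on array 7 to -0.022 on array 1 and were below 0 on 8 of 8 arrays. The lowest member was *Ndufa6*, an accessory subunit, with log2 ratios of -0.12, -0.12, -0.26 and -0.16 on the arrays with RA in Cy5 and -0.048, -0.0029, -0.023 and -0.20 on those with RA in Cy3. Its log2 fold change was -0.12 (SE 0.049) and its unadjusted p in limma was 0.0501. *Ndufb4*, an accessory subunit of the membrane arm, followed at -0.11 (SE 0.047, unadjusted p in limma 0.0493), with ratios of -0.18, -0.12, -0.066 and -0.25 with RA in Cy5 and -0.038, 0.043, -0.090 and -0.18 with RA in Cy3. It was below 0 on 7 of the 8 arrays. *Ndufb9*, another membrane arm subunit, had a log2 fold change of -0.10 (SE 0.055). At the other end stood *Ndufa9*, an accessory subunit near the quinone site, at 0.024 (SE 0.046), *Ndufs8*, which carries iron-sulphur clusters, at -5.3e-04 (SE 0.057), and *Ndufv3*, an accessory subunit of the NADH-oxidising module, at -0.020 (SE 0.047). The subunits *Ndufs1*, *Ndufs7*, *Ndufv2*, *Ndufv1* and *Ndufs8*, which bind flavin or iron-sulphur clusters, were slightly below 0, from -0.098 for *Ndufs1* through *Ndufs7* (-0.082), *Ndufv2* (-0.071) and *Ndufv1* (-0.049) to *Ndufs8*. *Ndufa4*, named for complex I but a subunit of complex IV, was at -0.081 (SE 0.049), and its paralogue *Ndufa4l2* is not analysed here.

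Complex II, succinate dehydrogenase, had 4 genes, all below 0, with a median of -0.040. The flavoprotein *Sdha* was at -0.074 (SE 0.048), the iron-sulphur subunit *Sdhb* at -0.026 (SE 0.045), and the membrane anchors *Sdhc* and *Sdhd* at -0.052 (SE 0.048) and -0.028 (SE 0.047). The median over these genes was 0.0073 when RA was in Cy3 and -0.094 when RA was in Cy5.

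Complex III, which passes electrons from ubiquinol to cytochrome c, had a median of -0.030, with 7 of 8 genes below 0. The median was 0.014 for RA in Cy5 and -0.079 for the exchanged dyes. The exception was *Uqcrq*, a small subunit of the complex, at 0.12 (SE 0.059, unadjusted p in limma 0.0787). Its mean log2 intensity was 8.29, from 1 spot, against 12.7 to 15.5 for the other genes of the complex. Its ratios were 0.39, 0.38, 0.19 and 0.38 with RA in Cy5 and 0.15, -0.047, -0.31 and -0.17 with RA in Cy3, so that both dye orders differed in sign on average. The small subunits *Uqcr10* and *Uqcr11* were at -0.0038 (SE 0.043) and -0.0090 (SE 0.050). The lowest were the core protein gene *Uqcrc2* at -0.086 (SE 0.090), *Uqcrb* at -0.066 (SE 0.045) and the hinge protein gene *Uqcrh* at -0.053 (SE 0.055). *Uqcrc2* ranged from -0.54 on array 6 to 0.28 on array 4, and without arrays 6 and 7 its log2 fold change was 0.030.

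Complex IV, cytochrome c oxidase, had a median of -0.048 with 15 of 17 genes below 0 (14 of 16 without *Cox8c*), and it held both the highest and the lowest gene of the chain. *Cox6a2* encodes the heart and skeletal muscle isoform of subunit VIa. Its log2 ratios were -0.22, 0.73, 1.00 and 1.00 on the arrays with RA in Cy5 (1, 3, 6 and 8) and -0.42, 0.63, 1.07 and 0.85 on those with RA in Cy3 (2, 4, 5 and 7). Arrays 1 and 2 were thus below 0 and the other 6 at 0.63 or above, with no value in between, and both dye orders gave similar means of 0.63 (SD 0.58) and 0.53 (SD 0.66). The log2 fold change was 0.58 (SE 0.20, 95% interval 0.10 to 1.06), which is 1.49-fold. The unadjusted p in limma was 0.0235 as the largest over the pairings, was under 0.01 in 18 of the 24 pairings, and had a lowest value of 1.03e-04. Those 18 were the pairings that put arrays 1 and 2 in different pairs, whereas in the 6 that put them together p lay between 0.0120 and 0.0235. Only 1 pairing can be the true one, so the number of pairings is no measure of support. Arrays 1 and 2 were alike in the median of 3 red blood cell genes, at -0.33 and -0.40. So were arrays 3 and 4, at 0.93 and 0.76, arrays 5 and 8, at -0.90 and -0.70, and arrays 6 and 7, at 0.34 and 0.15. A pairing by these values is 1 of the 6 that put arrays 1 and 2 together. Whether arrays alike in this way carry RNA of the same rats was not tested and is not known. On the first row of the slide (arrays 1 to 4) the mean was 0.18 and on the second (arrays 5 to 8) 0.98. Without arrays 1 and 2, the only arrays below 0, the mean was 0.88, with an adjusted p in limma of 0.0468. Leaving out exactly these arrays raises the mean whatever its cause, so this fit is no separate support. Over all fits with 1 array of each dye order left out, the log2 fold change lay between 0.43 and 0.88. The unadjusted p in limma reached 0.0905 among them. Over the alternatives for *Cox6a2* the adjusted p in limma lay between 0.00399 and 0.847. Of 6 genes listed for muscle, 3 were well above background on all 8 arrays and 5 were above 0 with a median of 0.027, the median by array lay between -0.10 and 0.12, and *Ckm*, the muscle creatine kinase, was well above background on 0 of 8 arrays in either channel. The ubiquitous isoform *Cox6a1* was at -0.054 (SE 0.048), with ratios between -0.30 on array 7 and 0.12 on array 8.

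*Cox8b*, the heart and muscle isoform of subunit VIII, was the lowest gene of the chain and had a dim probe, with a mean log2 intensity of 7.27. Its ratios were 0.021, -0.29, -0.98 and -0.13 with RA in Cy5 and 0.22, -0.23, -0.19 and -0.82 with RA in Cy3. Arrays 6 and 7 were far below the other 6, and arrays 1 and 2 were above 0. The log2 fold change was -0.30 (SE 0.14, unadjusted p in limma 0.0749), and it was -0.10 without arrays 6 and 7. Arrays 6 and 7 were also those with low ratios of RA over vehicle for genes of the choroid plexus, the epithelium that makes cerebrospinal fluid. The median of its 10 listed genes was -1.28 on array 6, -1.24 on array 7 and 0.050 to 0.51 elsewhere. The part of choroid plexus in the value of *Cox8b* was not tested. *Cox8a*, the ubiquitous isoform, was at -0.014 (SE 0.054), with a range from -0.24 on array 6 to 0.14 on array 2.

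**Figure D3:**
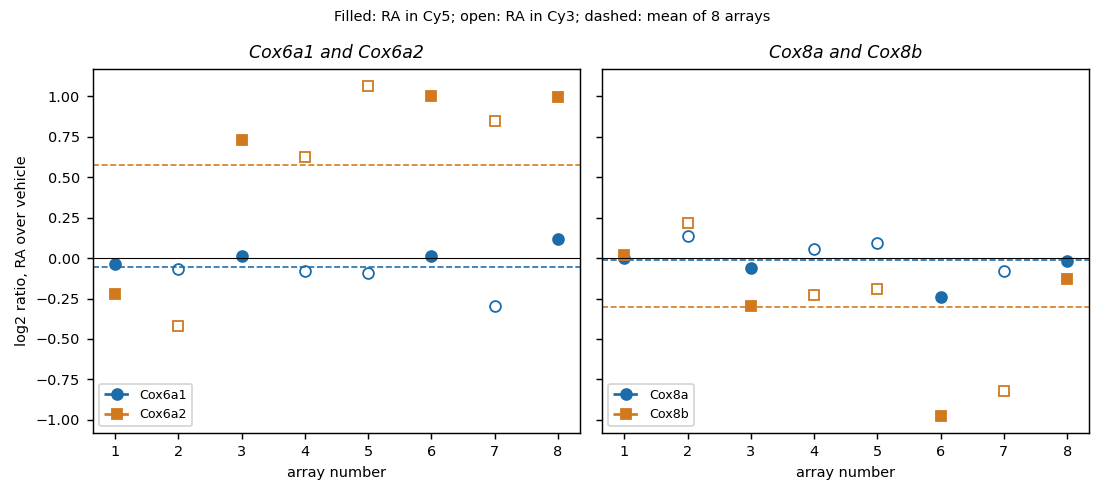
Log2 ratio (RA over vehicle, y axis) by array number (x axis) of *Cox6a1* and *Cox6a2* (left) and of *Cox8a* and *Cox8b* (right), filled where RA was in Cy5 and open where it was in Cy3, with the mean of 8 arrays as a dashed line. *Cox6a2* is below 0 on arrays 1 and 2 and at 0.63 or above on the other 6, and *Cox8b* is lowest on arrays 6 and 7, at -0.98 and -0.82.

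Other complex IV isoforms lay closer together. *Cox4i1* and *Cox4i2*, the ubiquitous and lung isoforms of subunit IV, were at -0.060 (SE 0.055) and -0.017 (SE 0.044), and *Cox6b1* and *Cox6b2*, the ubiquitous and testis isoforms of subunit VIb, at -0.028 (SE 0.048) and -0.016 (SE 0.049). *Cox7a2*, the liver-type isoform of subunit VIIa, was at -0.063 (SE 0.044) and ran from -0.10 to -0.0014 over the arrays. *Cox7a2l*, which helps to join complexes III and IV into supercomplexes, was at -0.11 (SE 0.049, unadjusted p in limma 0.0481), with ratios of -0.16, -0.12, 0.010 and -0.22 with RA in Cy5 and -0.011, -0.083, -0.20 and -0.13 with RA in Cy3. It was below 0 on 7 of the 8 arrays, and its log2 fold change lay between -0.15 and -0.082 when 1 array of each dye order was left out. *Cox7b*, a small structural subunit, was at -0.073 (SE 0.067). *Cox5a*, another nuclear subunit of the oxidase, was, beside *Cox6a2*, the only gene of the complex above 0, at 0.016 (SE 0.048).

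Complex V, the ATP synthase, had a median of -0.033 with 11 of 15 genes below 0. The catalytic β subunit gene *Atp5f1b* was the highest at 0.053 (SE 0.076) and the α subunit gene *Atp5f1a* the lowest at -0.10 (SE 0.057, unadjusted p in limma 0.109), although the proteins they encode form the same catalytic head in equal numbers. Without arrays 6 and 7 the value of *Atp5f1b* was -0.039. *Atp5f1b* had ratios of -0.11, 0.083, 0.33 and 0.099 with RA in Cy5 and -0.038, -0.18, -0.085 and 0.33 with RA in Cy3. *Atp5f1a* had -0.28, -0.12, -0.20 and -0.070 with RA in Cy5 and -0.100, 0.089, 0.088 and -0.23 with RA in Cy3. The ranges of both genes over the arrays overlapped, and on arrays 6 and 7 *Atp5f1b* was high while *Atp5f1a* was low. The genes *Atp5mc1* and *Atp5mc2*, which encode the same c-ring protein with different import sequences, were at 0.019 (SE 0.046) and 0.035 (SE 0.057). *Atp5if1*, the inhibitor of ATP hydrolysis by the synthase, was at -0.055 (SE 0.045), *Atp5pf*, coupling factor 6 of the stalk, at -0.066 (SE 0.045), and *Atp5mk*, a small subunit of the membrane sector, at -0.069 (SE 0.047).

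In some subunit genes the ratio turned with the dye order, a pattern chosen for description after the values had been seen. In 15 of 77 genes (19.5%, against 6.72% of named genes) the ratio was above 0 on all 4 arrays of one dye order and below 0 on all 4 of the other. RA was on the high side when in Cy5 for 11 of them (14.3%, against 3.83%), namely *Ndufb6*, *Ndufab1*, *Ndufa1*, *Ndufa5*, *Ndufa2*, *Uqcr10*, *Cox4i2*, *Cox6c*, *Atp5mc1*, *Atp5me* and *Atp5pf*. It was on the high side when in Cy3 for 4 (5.19%, against 2.88%), namely *Ndufs3*, *Ndufv1*, *Ndufa10l1* and *Sdhd*. Spots of one probe on one array differed less, with a median standard deviation of 0.033 over the 65 members that had several spots. *Uqcr10* shows how far the split went. Its ratios were 0.18, 0.23, 0.25 and 0.16 with RA in Cy5 and -0.15, -0.28, -0.19 and -0.24 with RA in Cy3, with a mean of -0.0038 over both. For *Ndufa5*, an accessory subunit of complex I, the means were 0.14 and -0.29, and for *Ndufa10l1*, a gene named as like the accessory subunit gene *Ndufa10*, -0.25 and 0.14. Across all 77 genes, the means of both dye orders had a Pearson correlation of -0.074, compared with 0.65 across 10802 other named genes well above background. It was -0.70 across the 75 genes left when *Cox6a2* and *Cox8b*, which had large values of one sign in both dye orders, were removed after their values had been seen. These are correlations across genes, which are not independent replicates and share arrays and dyes. The standard deviation of the deviation of either dye order from their common mean was 0.094 over all 77 genes, beside 0.087 for the log2 fold change, and 0.095 beside 0.041 over the 75. Across the 10802 other named genes it was 0.088 beside 0.19. The deviation between dye orders was thus of similar size in both sets, while the log2 fold changes of the subunit genes spread less. The median of the 77 genes was below 0 in either dye order, at -0.034 for RA in Cy5 and -0.058 for the exchanged dyes.

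**Figure D4:**
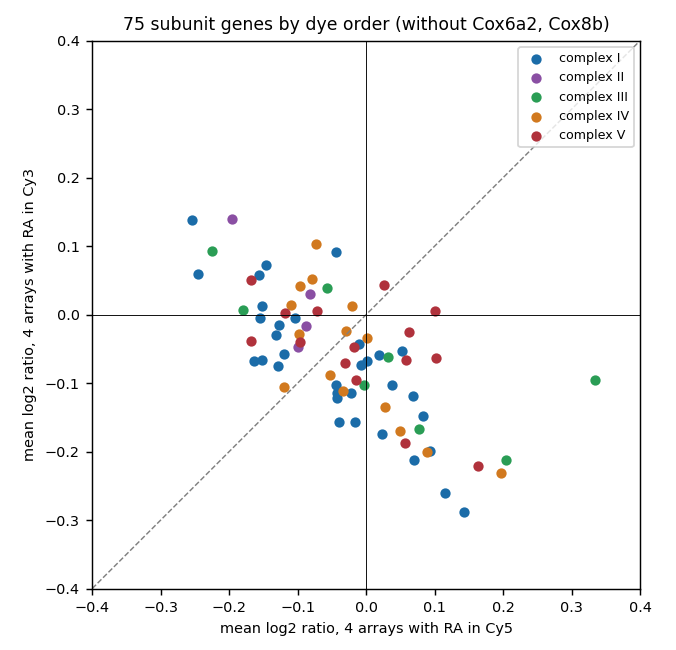
Mean log2 ratio (RA over vehicle) over the 4 arrays with RA in Cy5 (x axis) and over the 4 with RA in Cy3 (y axis) for 75 subunit genes, coloured by complex, with a dashed line where both are equal. The points run across the dashed line from upper left to lower right (Pearson correlation -0.70, against -0.074 with the 2 genes left out of the plot) and centre on values slightly below 0.

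Promoters of a few members are shown to give the sequence context of the genes with the largest values beside ubiquitous ones. The RefSeq promoter windows of the GRCr8 build, from 250 bases before to 50 bases after the gene start, were matched for 67 of the 77 genes. The ubiquitous *Cox8a*, the ATP synthase e subunit gene *Atp5me* and both muscle isoform genes are printed 5′ to 3′ on the strand of the gene, with the 10-base NRF1 element GCGCATGCGC and the 7-base GABP core CCGGAAG, which reads CTTCCGG on the opposite strand, in capitals. *Cox8a* lies at chr1:213833574-213833873 (minus strand), *Atp5me* at chr14:1464610-1464909 (plus strand), *Cox6a2* at chr1:192219667-192219966 (minus strand) and *Cox8b* at chr1:205408224-205408523 (minus strand).
Cox8a: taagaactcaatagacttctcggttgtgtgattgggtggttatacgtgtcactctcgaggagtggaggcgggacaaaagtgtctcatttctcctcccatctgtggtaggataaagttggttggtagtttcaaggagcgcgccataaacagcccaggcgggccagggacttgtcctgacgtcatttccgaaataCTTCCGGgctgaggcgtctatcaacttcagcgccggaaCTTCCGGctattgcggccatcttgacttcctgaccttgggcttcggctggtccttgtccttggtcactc
Atp5me: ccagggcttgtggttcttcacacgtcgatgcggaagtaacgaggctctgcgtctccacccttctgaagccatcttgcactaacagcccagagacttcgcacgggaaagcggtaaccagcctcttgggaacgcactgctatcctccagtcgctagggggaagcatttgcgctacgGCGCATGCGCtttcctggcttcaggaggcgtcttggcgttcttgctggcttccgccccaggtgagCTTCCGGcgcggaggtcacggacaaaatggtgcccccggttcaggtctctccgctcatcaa
Cox6a2: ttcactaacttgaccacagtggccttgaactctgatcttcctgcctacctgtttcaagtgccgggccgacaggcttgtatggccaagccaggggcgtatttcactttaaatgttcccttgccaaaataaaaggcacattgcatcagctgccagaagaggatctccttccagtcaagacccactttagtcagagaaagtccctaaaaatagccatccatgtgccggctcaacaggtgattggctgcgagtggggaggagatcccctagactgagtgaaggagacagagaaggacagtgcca
Cox8b: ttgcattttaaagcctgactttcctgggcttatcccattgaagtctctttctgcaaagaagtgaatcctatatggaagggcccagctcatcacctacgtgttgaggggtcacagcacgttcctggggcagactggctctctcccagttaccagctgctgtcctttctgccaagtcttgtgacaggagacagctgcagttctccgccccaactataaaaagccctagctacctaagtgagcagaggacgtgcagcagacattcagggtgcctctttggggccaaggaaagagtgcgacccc

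Neither motif contains the other, and both strands were searched. The GABP core was found in 20 of the 67 promoters (29.9%, against 9.22% of all 27457 promoters) and the NRF1 element in 4 (5.97%, against 0.932%). At least 1 of both was present in 23 (34.3%, against 9.96%), of which 7 of 30 were in complex I, 2 of 4 in complex II, 3 of 6 in complex III, 4 of 13 in complex IV and 7 of 14 in complex V. The GABP core stood at 2 positions in 5 promoters, those of *Cox8a*, *Cox4i1*, *Ndufa1*, *Sdhd* and *Uqcrc2*, and *Atp5me* held both motifs. Neither motif was found in 44 of the 67 windows, among them those of *Cox6a2* and *Cox8b* and of ubiquitous subunits such as *Cox5a*, *Cox6b1* and *Cox7c*, so that this is not particular to the muscle isoforms. The GC content had a median of 56.3% in the subunit promoters and 52.3% in all promoters. A match is a description of the letters and not a binding site.

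The regulators named above were measured too. Of 9 genes listed as regulators of mitochondrial biogenesis, 0 passed an unadjusted p of 0.01 in limma in either direction, 5 were above 0 and the median was 0.0097. *Ppargc1a*, which encodes PGC-1α, had the lowest p, at -0.16 (SE 0.066, unadjusted p in limma 0.0488). *Nrf1* was at 0.044 (SE 0.062), *Gabpa*, a subunit of GABP, at 0.0097 (SE 0.054) and *Tfam*, which packages mitochondrial DNA, at 0.038 (SE 0.044).

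Other parts of mitochondrial metabolism were set beside the subunit genes. Among 39 assembly factors, limma called 1 lower (2.56%, against 0.792% of named genes) and 0 higher at an unadjusted p under 0.01, with 25 below 0 and a median of -0.029. The gene called was *Cox11*, which delivers copper to complex IV, at -0.18 (SE 0.046, p 0.00497, adjusted p in limma 0.276). Of 13 genes of the TCA cycle, which feeds electrons to complexes I and II, 0 passed, 6 were below 0 and the median was 0.0071. *Sucla2*, a succinyl-CoA ligase subunit, had the lowest p in that list, at -0.12 (SE 0.045, p 0.0312). Its ratios were 0.039, 0.071, -0.019 and 0.060 with RA in Cy5. With RA in Cy3 they were -0.31, -0.23, -0.24 and -0.33, so that *Sucla2* was far below 0 in 1 dye order only. Among 7 inner membrane carriers and outer membrane pores 0 passed, 6 were below 0 and the median was -0.056, with *Ucp2*, an uncoupling protein homologue that is abundant in immune cells, at 0.34 (SE 0.10, p 0.0115). Cytochrome c, the mobile electron carrier (*Cycs*), was at -0.0062 (SE 0.055).

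In glycolysis, 1 of 17 genes was higher (5.88%, against 3.52% of named genes) and 0 lower at an unadjusted p under 0.01 in limma. The median was -0.032 with 9 below 0. *Ldha*, the lactate dehydrogenase subunit that is prominent in glycolytic cells, was at 0.17 (SE 0.046, p 0.00815, adjusted p in limma 0.297). Its ratios were 0.34, 0.39, 0.42 and 0.44 with RA in Cy5. With RA in Cy3 they were -0.13, -0.096, -0.073 and 0.040, so that *Ldha* was clearly higher in 1 dye order only. *Hk2*, an inducible hexokinase, had a log2 fold change of 0.21 (SE 0.071, p 0.0182) and *Ldhb*, the other main lactate dehydrogenase subunit, of -0.16 (SE 0.065, p 0.0466).

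Other multi-subunit machines had different medians. The 66 genes of the mitochondrial ribosome had a median of 0.0016, with 32 below 0 and 0 called in either direction at an unadjusted p under 0.01. The 35 proteasome genes had a median of 0.011 with 13 below 0, and again 0 were called. The 82 genes of the cytosolic ribosome had a median of 0.083 with 75 above 0. At that threshold limma called 3 of them higher (*Rplp0*, *Rps2* and *Rpl10a*) and 0 lower, which is 3.66% higher, near the 3.52% of all named genes. At an unadjusted p under 0.05, however, limma called 22 of the 82 higher and 0 lower, against 8.48% and 4.57% of named genes. The difference between these lists and the subunit genes was not tested.

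**Figure D5:**
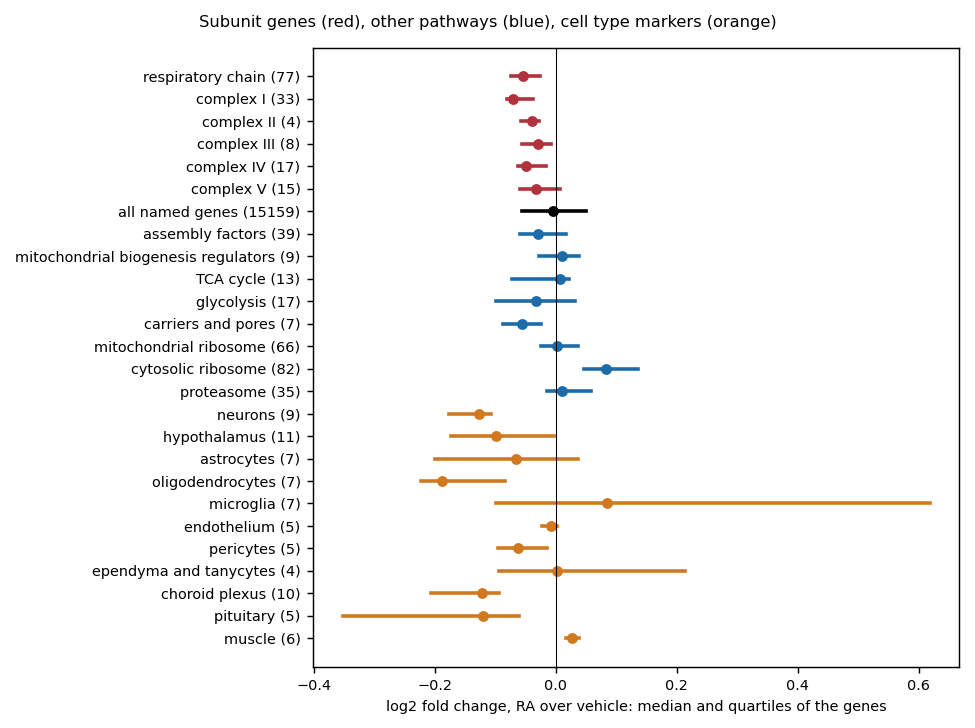
Median log2 fold change (RA over vehicle, x axis, points) and the range between the quartiles (bars) for the subunit genes and their complexes (red), all named genes (black), other pathways (blue) and cell type markers (orange), with the number of genes in parentheses. The subunit genes have a median of -0.053, the mitochondrial ribosome 0.0016, the cytosolic ribosome 0.083 and the neuron markers -0.13.

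Cell type markers also moved in these blocks. All 9 measured neuron markers were below 0, with a median of -0.13, and the median by array was below 0 on 8 of 8 arrays, between -0.41 and -0.059. Limma called 2 of them lower at an unadjusted p under 0.01 (22.2%, against 0.792% of named genes). These were the neurofilament genes *Nefm* at -0.39 (SE 0.10, p 0.00547) and *Nefl* at -0.30 (SE 0.086, p 0.00982). Of 7 oligodendrocyte markers 6 were below 0 with a median of -0.19 and 0 were called. The 7 microglia markers had a median of 0.085 with 3 below 0. Of these, *Aif1* and *Itgam* were higher, at 0.88 and 0.87, and *Tmem119* lower, at -0.52. The 7 astrocyte markers had a median of -0.065 with 4 below 0. Of these, *Gfap* was higher at 1.40 and *Gja1* lower at -0.22. Each of these genes passed an unadjusted p of 0.01 in limma, as did 3.52% of named genes higher and 0.792% lower. Lists for endothelium, pericytes, ependyma with tanycytes, pituitary and red blood cells had medians between -0.12 and 0.0020, and *Vim*, at 0.62, was their 1 gene past that threshold. Single arrays stood far apart for some of them. The median of 3 red blood cell genes was 0.93 and 0.76 on arrays 3 and 4 and -0.90 and -0.70 on arrays 5 and 8, and that of 5 pituitary genes was -0.40 and -0.47 on arrays 5 and 8. The part of such markers in the small shift of the subunit genes was not tested.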

How the data were processed

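Hypothalamic RNA was measured on 8 two-colour arrays, with samples grouped by dye order from the labels. The members and lists were chosen with earlier results of these data known. The authors deposited Cy3 and Cy5 intensity values per spot, Agilent's log10 ratio and a table of normalised log2 ratios. Their methods name limma, loess normalisation and dye-swaps as blocks.

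Values were computed in R 4.3.3 with limma 3.58.1. Median intensities were corrected by normexp (offset 50), control and outlier spots (0.913% to 2.42% per array) were left out, loess was applied within arrays, and spots of a probe were averaged. The fit covered 30367 probes (58717 spots), with Benjamini-Hochberg adjustment over all of them, and was tested on simulated data. Names came from unversioned RefSeq accessions (18006 probes, 59.3%). The brightest probe stood for a gene, and the 18 further probes of 15 members differed from it by at most 0.048 on the log2 scale. The deposited log2 table, which was used as an alternative, correlated with loess ratios without background correction at 0.985 to 1.00 and ran in the same direction; its column medians were -0.0031 to 0.013.

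Named members are the 3 highest and 3 lowest of each complex, isoform pairs and any with an unadjusted p under 0.01. For comparison lists, up to 3 genes with the lowest p are named. Other genes were named after their values were seen. Alternatives concerned background, normalisation, filters, pairing, dye order, slide row and arrays left out. With no record of separate extractions, p values measure the spread between these samples, and the number of arrays limits precision. Protein sequences were not used here, and the values of 1 member are not reported here.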

Additional observations from a re-analysis of the deposited data

Results flagged for a closer look

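Among 84 sets of 4 arrays of one dye order, 6 held 1 array far from the other 3 relative to the range, and chance gives about 1 in 20, or 4. With RA in Cy5, *Uqcrq* was 0.19 on array 6 and 0.38 to 0.39 elsewhere, *Uqcrc2* was -0.54 on array 6 and -0.086 to -0.021 elsewhere, and *Cox7a2* was -0.081 on array 1 and -0.104 to -0.103 elsewhere. With RA in Cy3, *Atp5mc1* was -0.21 on array 4 and -0.034 to -0.0044 elsewhere, *Cox6a1* was -0.30 on array 7 and -0.093 to -0.065 elsewhere, and *Cox7a2* was -0.087 on array 4 and -0.013 to -0.0014 elsewhere.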

How the results depend on the processing

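Over 34 alternatives the median of the subunit genes stayed below 0, between -0.065 and -0.034. That of all named genes moved too, from -0.031 with Agilent's log ratio to 0.0032 with RA in Cy5 alone. With Agilent's log ratio the subunit genes had -0.060, and 59.1% of named genes were below 0. Between 49 and 69 subunit genes were below 0 over the alternatives. The 49 came from the arrays with RA in Cy5 alone (49.0% of named genes below 0) and 55 from those with RA in Cy3 alone (51.4%). Among probes with a mean log2 intensity of 12 or more, an alternative chosen after seeing the data, 60 of 65 were below 0 (92.3%, against 57.1% of 1492 named genes). The medians there were -0.055 for the subunit genes and -0.019 for the named genes.

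Counts of calls moved. Higher at an unadjusted p under 0.01 were 1 with 8 independent arrays, with either slide row alone and with slide row as a block (2.41% to 7.04% of named genes). With RA in Cy5 alone 2 were higher (5.64%), and 0 to 1 when 1 array of each dye order was left out (1.62% to 3.87%). Lower at that threshold were 4 with RA in Cy5 alone (2.36% of named genes), 5 with RA in Cy3 alone (3.45%) and 0 with arrays left out (0.317% to 1.06%). With 1 dye order alone, RA cannot be told apart from the dye. *Uqcr10* was called higher with RA in Cy5 alone and lower with RA in Cy3 alone. The share of named genes higher at an unadjusted p under 0.05 was 8.48% in the main fit and was not taken for each alternative. Subunit genes higher at that threshold were 0 with Agilent's log ratio, 2 with independent arrays or slide row as a block and 6 with RA in Cy5 alone. With arrays left out there were 0 to 1. Among probes with a mean log2 intensity of 12 or more there were 0, but that filter removes *Cox6a2*, whose mean log2 intensity was 9.80. Lower at that threshold were 6 with Agilent's log ratio (5.75% of named genes) and 6 with the pairing with most calls (7.78%). There were 8 with independent arrays (8.60%) and 4 with a random block (5.85%). RA in Cy5 alone gave 13 (8.76%) and RA in Cy3 alone 14 (10.2%). Lower genes numbered 1 with outlier spots kept (4.48%), slide row 2 (4.09%), slide row as a block (5.25%) or the median over probes (3.72%). Slide row 1 gave 0 (2.94%), and fits with arrays left out gave 0 to 2 (2.95% to 4.49%). At an adjusted p under 0.05 in limma there was 1 (*Cox6a2*, adjusted p 0.00399) with slide row 2 alone and 0 to 1 with arrays left out. That 1 was *Cox6a2* without arrays 1 and 2, the only arrays where it was below 0. Of 36 named members, 23 changed sign in at least 1 alternative, *Ndufs8* in 12 and *Uqcr10* in 9. *Uqcr10* went from -0.0038 to 0.20 with RA in Cy5 alone. The cause was not tested.

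*Cox6a2* passed an unadjusted p of 0.01 in 10 of 33 alternatives and was above 0 in all of them, between 0.18 and 0.98. Probes not well above background limit what can be said of *Cox8c*.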
